A study of Mus musculus with 4 samples.

Results

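SHP binding was examined at 47 nuclear receptor genes, SHP's own gene Nr0b2 included, out of 22380 protein-coding genes of the GENCODE M1 annotation. A gene was counted as bound when a peak interval lay within 5 kb of its gene body in the mouse genome build mm9. In all, 17 of the 47 genes had a peak in at least 1 group, from 12 of 1508 peaks with vehicle and 18 of 3155 peaks with FGF19. The livers came from wild-type male C57BL/6 mice aged 8 to 12 weeks that had fasted for 12 h. They received vehicle, or the intestinal hormone FGF19 at 1 mg/kg, into the tail vein, and tissue was taken 2 h afterwards. Each group was 1 SHP ChIP library with 1 input library, made from material of 3 pooled mice, so no replicate error can be given and no difference between the groups was tested. Whole liver was used, and which of its cell types gave a peak was not tested.

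Nuclear receptors are transcription factors, many of which are switched by small lipophilic ligands such as steroids, thyroid hormone, retinoic acid, fatty acids, oxysterols and bile acids. Most bind DNA through zinc fingers that read variants of the hexamer AGGTCA, alone, as homodimers, or as heterodimers with RXR. SHP and DAX1, the pair that forms subfamily NR0, have no zinc fingers. They reach chromatin by contact with other transcription factors, many of them nuclear receptors, which they usually repress. In liver the bile acid receptor FXR induces the Nr0b2 gene, and SHP then represses bile acid synthesis genes through receptors such as LRH-1 and HNF-4α.

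With vehicle, 10 of the 47 genes (21.3%, Wilson 95% interval 12.0 to 34.9) had an SHP peak, where 7.93% of all protein-coding genes did. With FGF19 it was 12 genes (25.5%, 15.3 to 39.5), beside 16.3% of all genes. Peaks in both groups were found at 5 receptor genes (10.6%, background 4.31%), with vehicle only at 5 (10.6%, background 3.62%) and with FGF19 only at 7 (14.9%, background 12.0%). In either group it was 36.2% of the receptors and 19.9% of all genes. The FGF19 list had more than double the peaks of the vehicle list. Of all protein-coding genes, 1774 had a peak with vehicle and 3652 with FGF19. The receptors had 10 and 12 bound genes, with 12 and 18 peaks. Their interval with FGF19 includes the share of all genes. Cut to the 1508 peaks of smallest q-value, as many as the vehicle list has, the FGF19 list bound 5 of the receptor genes (10.6%, background 8.06%). Rara was then the 1 gene with FGF19 only (background 5.35%), and Hnf4a joined those with vehicle only, which made them 6 (background 5.22%). These intervals cover counting error only.

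The receptor genes are long, with a median gene body of 47125 bp against 15420.5 bp over all protein-coding genes, and the part of gene length in the shares was not tested. Among the receptors, the 17 bound genes had a median length of 35074 bp and the 30 without a peak 56524 bp. Counting only summits within 1 kb of an annotated transcription start site (TSS) of the gene gave 7 genes with vehicle (14.9%, background 5.52%) and 8 with FGF19 (17.0%, background 12.5%). By that count 3 genes were bound in both groups (6.38%, background 2.59%), 4 with vehicle only (8.51%, background 2.94%), 5 with FGF19 only (10.6%, background 9.91%) and 12 in either (25.5%, background 15.4%). In the plot of these shares the receptors stood above all genes under both counts. With FGF19 and with FGF19 only, their intervals included the share of all genes under both counts. By the TSS count that also held for genes bound in both groups.

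**Figure D1:**
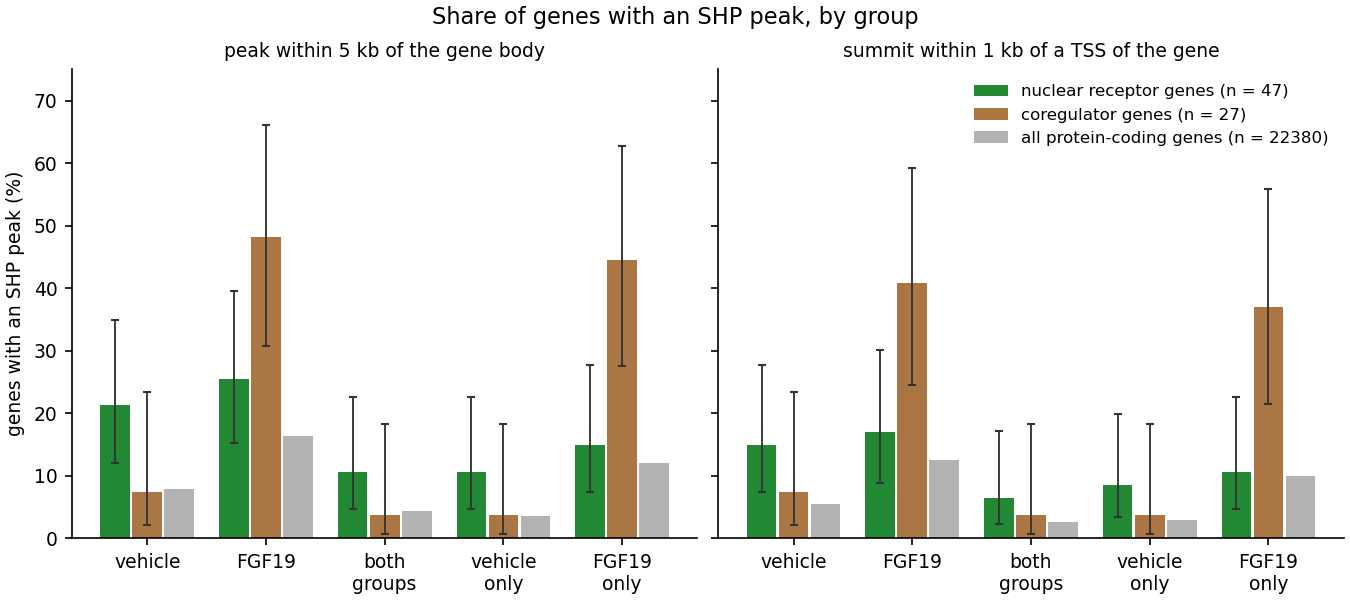
Percent of genes with an SHP peak (vertical axis) with vehicle, with FGF19, in both groups, with vehicle only and with FGF19 only, counted within 5 kb of the gene body (left) or within 1 kb of a TSS (right). Bars are the 47 nuclear receptor genes, the 27 coregulator genes and all 22380 protein-coding genes, and whiskers are Wilson 95% intervals that cover counting error. The receptors stand at 21.3% with vehicle and 25.5% with FGF19 on the left, beside 7.93% and 16.3% of all genes.

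The receptors were also counted by where they are best known to act, from lists made from general knowledge. These lists were made with earlier results of these data known, so their counts are a description and no independent support. Of 23 receptors with a well-known role in liver, 13 had a peak in either group (56.5%, beside 19.9% of all protein-coding genes). There were 7 with vehicle (background 7.93%) and 9 with FGF19 (background 16.3%), of which 3 were bound in both (background 4.31%). These 13 include Nr1i3, whose counted peak was at the TSS of a neighbour. Of 11 receptors known mainly from other tissues, such as DAX1 (Nr0b1) and SF1 (Nr5a1) of steroid-producing glands, TLX (Nr2e1) of brain and PNR (Nr2e3) of retina, 0 had a peak, which allows a share of up to 27.3%, above that of all genes. The 13 receptors placed in neither list had 4 bound genes (30.8%). No difference between these lists was tested. Expression was not measured in these libraries.

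The member peaks were ordinary in strength. With vehicle their median fold enrichment over the local input was 3.90 (2.91 to 6.29), beside 4.14 over all vehicle peaks. With FGF19 it was 4.11 (2.53 to 5.54), beside 4.05 over all FGF19 peaks. Pileups at the summit, the number of extended ChIP tags stacked there, ran from 14 to 49 tags with vehicle and from 15 to 33 with FGF19, with medians of 25 and 25.5 against 24 in each whole list. The peak caller's cutoff was a q-value of 0.05, a -log10 of 1.3, and the weakest member peaks stood at 2.60 with vehicle and 2.47 with FGF19. Peaks found in 1 group only ranged up to 13.1 with vehicle and 9.88 with FGF19 on that scale. A gene without a listed peak had no signal past the cutoff, and weaker signal was not analysed here.

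**Figure D2:**
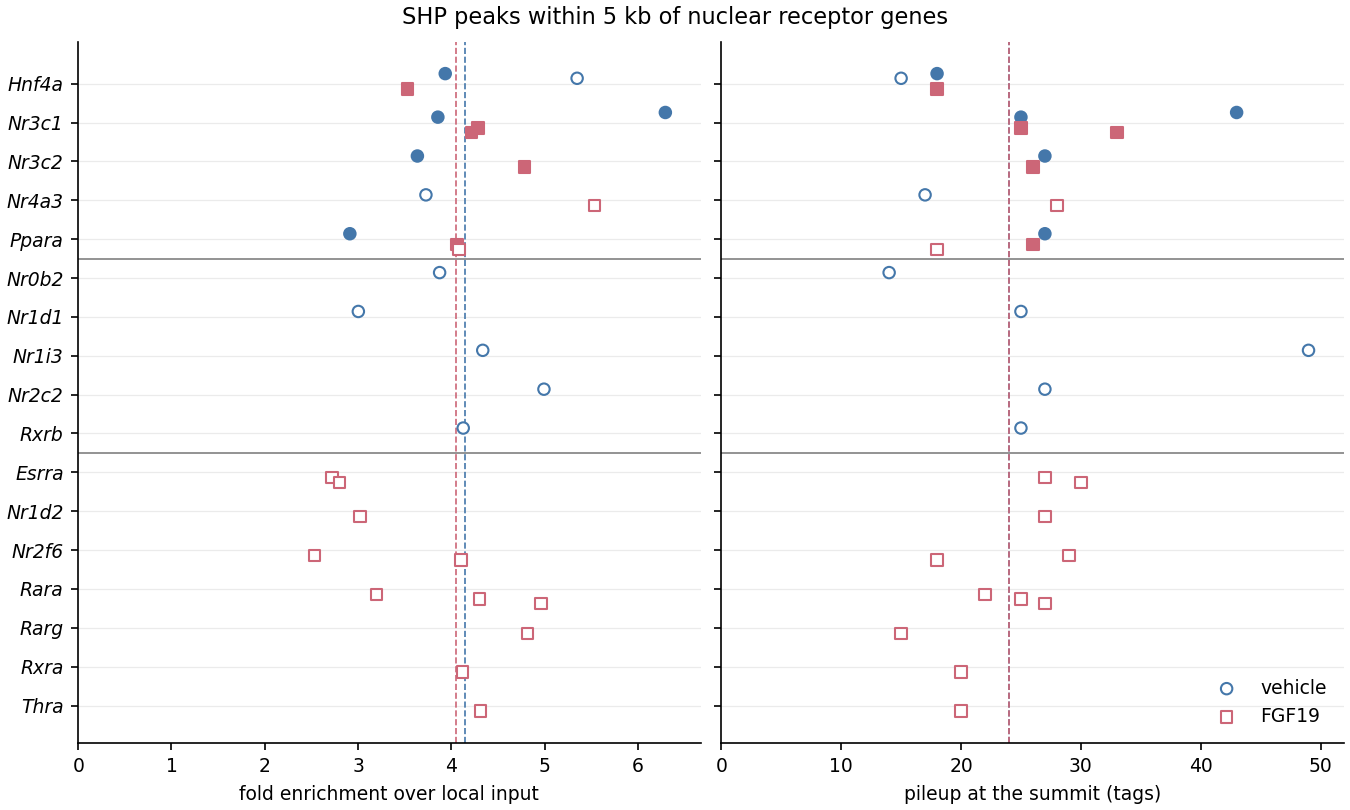
Fold enrichment over local input (left) and pileup at the summit in tags (right) of every SHP peak within 5 kb of a nuclear receptor gene, circles for vehicle and squares for FGF19, filled where a peak of the other group overlaps it. Horizontal lines separate genes bound in both groups, with vehicle only and with FGF19 only, and dashed lines are the medians of all peaks in each list, 4.14 and 4.05 for fold enrichment and 24 tags in both for pileup. Points were offset vertically for legibility, and most lie near the medians.

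Of the atypical corepressors, Nr0b2 was bound and Nr0b1 was not. Nr0b2 encodes SHP itself, at chr4:133109291-133112451, plus strand, in mm9. Its only peak was in the vehicle group, at chr4:133109547-133109857, with a pileup of 14 tags (exact Poisson 95% interval 7.65 to 23.5) on a background of 2.87 tags. The fold enrichment was 3.87, and only 1.59% of vehicle peaks had a lower pileup. Its -log10 q-value of 2.60 was the lowest of the vehicle member peaks. The summit lay 378 bp downstream of the TSS, in the coding part of an exon. The nearest FGF19 peak was 43.1 kb from the gene. Under the summit, 5 bp from it, stood 1 copy of the receptor hexamer AGGTCA, read on the opposite strand as TGACCT. The 101 bases centred on that summit, chr4:133109619-133109719 of mm9 on the plus strand, are shown because the peak lies in SHP's own gene. The hexamer is in capitals.
Nr0b2, vehicle: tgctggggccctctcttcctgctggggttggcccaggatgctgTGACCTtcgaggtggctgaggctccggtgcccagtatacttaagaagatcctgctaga

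Of 7 lipid and bile acid sensors, Ppara alone was bound, in both groups, as were 4.31% of all protein-coding genes. PPARα (Ppara) senses fatty acids and drives fatty acid oxidation in fasting. Its gene is at chr15:85565413-85633249. The shared peak was chr15:85565923-85566185 with vehicle and chr15:85565825-85566133 with FGF19, with summits 22 bp upstream and 6 bp downstream of a TSS. The pileup was 27 tags with vehicle and 26 with FGF19, while the fold enrichment was 2.91 and 4.06. The background beneath it was 8.62 tags with vehicle and 5.65 with FGF19. This background was computed from the pileup and the fold enrichment, so it is no separate measurement. A second Ppara peak, with FGF19 only, had 18 tags and a fold enrichment of 4.08, and its summit was 987 bp upstream of another TSS inside the gene.

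The other 6 sensors had 0 peaks within 5 kb in either list. They were the fatty acid receptors Ppard and Pparg, the oxysterol receptors LXRα (Nr1h3) and LXRβ (Nr1h2), FXR (Nr1h4), which induces the SHP gene, and FXRβ (Nr1h5). For Nr1h4 the nearest peak was 152.3 kb away with vehicle and 1648 kb with FGF19. For Nr1h3 it was 34.2 kb with vehicle and 34.1 kb with FGF19. The closest of the 6 was Ppard, with an FGF19 peak 11.7 kb from the gene body whose summit was 9 bp upstream of a TSS of Fance.

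Of 4 receptors of the circadian clock, both REV-ERB genes were bound, each in a different group. REV-ERBα and REV-ERBβ repress clock and metabolic genes in competition with ROR receptors. Nr1d1 (REV-ERBα) had a vehicle peak at chr11:98635343-98635623, with 25 tags and a fold enrichment of 3.00. Its summit was in an intron 1106 bp downstream of a TSS. Nr1d2 (REV-ERBβ) had an FGF19 peak at chr14:19071385-19071836, with 27 tags and a fold enrichment of 3.02, and its summit was 79 bp downstream of a TSS in the 5′ untranslated region. Both stood on high backgrounds, of 7.66 and 8.27 tags, so that only 8.49% and 10.6% of their lists had a lower fold enrichment. Rora and Rorb were unbound, and the nearest peak to Rora was 1154 kb away.

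Of 6 receptors of thyroid hormone, retinoic acid and vitamin D, 3 were bound, all with FGF19 only, as were 12.0% of all protein-coding genes. For Thra and Rarg that call depended on the settings, as given below. Rara, the retinoic acid receptor RARα, had 3 FGF19 peaks and no vehicle peak within 66.4 kb, the most peaks of any receptor in 1 list. These were chr11:98798778-98799419, chr11:98812821-98813230 and chr11:98821213-98822064. Their pileups were 22, 25 and 27 tags, and their fold enrichments 3.20, 4.30 and 4.96. The outer ones had summits 2 bp and 95 bp downstream of separate TSSs, both in 5′ untranslated exons, and the middle one lay in an intron. The third, at 852 bp, was also the longest peak at any receptor gene. Rarg, the receptor RARγ, had an intronic peak 1344 bp upstream of its nearest TSS, with 15 tags and a fold enrichment of 4.82. Thra, the thyroid hormone receptor α, had a peak with 20 tags and a fold enrichment of 4.31 at a summit 33 bp upstream of a TSS. A vehicle peak lay 5023 bp from Thra, so that at a distance of 10 kb Thra counted as bound in both groups. In the shortened FGF19 list Thra and Rarg had no peak, and Rara kept its call. Rarb, Thrb and Vdr were unbound.

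Of the xenobiotic sensors, which induce drug-metabolising enzymes, PXR (Nr1i2) was unbound, and the peak counted for CAR (Nr1i3) was nearer to a neighbour's TSS. That vehicle peak, chr1:173152342-173152741, lay 1510 bp beyond the end of Nr1i3, and its summit was 5 bp downstream of the TSS of Tomm40l, a relative of the mitochondrial import channel gene Tomm40. With 49 tags it had the highest pileup of all member peaks, above 92.9% of vehicle peaks, and its fold enrichment was 4.34. Counting only peaks whose nearest TSS was the gene's own left out Nr1i3, which gave 9 receptor genes with vehicle and 16 in either group. The share of all protein-coding genes by that rule was not computed, so these counts have no background beside them.

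Of 5 genes of HNF-4 and RXR, 3 were bound in either group (background 19.9%), of which Rxra had no peak in the shortened FGF19 list. HNF-4α (Hnf4a) maintains the hepatocyte gene program, and the RXRs are the common heterodimer partners. Hnf4a, at chr2:163332544-163398646, had a shared peak in its 3′ untranslated region, chr2:163396903-163397240 with vehicle and chr2:163397140-163397755 with FGF19. The pileup was 18 tags in both, at fold enrichments of 3.93 for vehicle and 3.53 for FGF19. These peaks shared 101 bp, 29.9% of the shorter, and their summits were 165 bp apart. They did not count as shared when an overlap of 50% of the shorter peak, or summits at most 100 bp apart, were required. A vehicle-only peak lay in an intron 10916 bp downstream of a TSS, with 15 tags and a fold enrichment of 5.35. The background there, 1.99 tags, was the lowest of the whole vehicle list and near the genome-wide level expected for that library, also 1.99 tags. That fold enrichment thus stood on a floor, and only 3.05% of vehicle peaks had a lower pileup. Rxra (RXRα) had 1 FGF19 peak, with 20 tags and a fold enrichment of 4.12, which like that of Hnf4a was in the 3′ untranslated region, 849 bp before the gene's end. Rxrb (RXRβ) had 1 vehicle peak, with 25 tags and a fold enrichment of 4.13, 38 bp downstream of its TSS. Hnf4g and Rxrg were unbound.

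Of 7 orphan receptors of subfamily NR2, Nr2c2 and Nr2f6 were bound in either group (background 19.9%). In the shortened FGF19 list Nr2f6 had no peak. Nr2c2 encodes TR4, a repressor or activator at direct repeats of the hexamer. It had a vehicle peak with 27 tags and a fold enrichment of 4.99, 296 bp upstream of a TSS. Nr2f6 encodes EAR2, a relative of the COUP-TF receptors. It had an FGF19 peak with 18 tags and a fold enrichment of 4.10, whose summit was in a coding exon and 308 bp upstream of an internal TSS. A second FGF19 peak, 2370 bp beyond the gene, had its summit 214 bp downstream of the TSS of Ocel1. That peak had the lowest fold enrichment of the member peaks, 2.53, on the highest background, 10.8 tags. COUP-TFI and COUP-TFII (Nr2f1 and Nr2f2), Nr2c1, Nr2e1 and Nr2e3 were unbound.

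Of the 3 NR4A receptors, which are immediate early genes induced by hormones and stress, Nr4a3 (NOR1) was bound in both groups but at different places, and Nr4a1 and Nr4a2 were unbound. Its gene is at chr4:48058025-48099319. The vehicle peak, chr4:48057604-48057920, had its summit 343 bp upstream of the TSS, with 17 tags and a fold enrichment of 3.73. The FGF19 peak, chr4:48055996-48056372, had its summit 1831 bp upstream, with 28 tags and a fold enrichment of 5.54, the highest of the FGF19 member peaks. They did not overlap. The 101 bases around each summit on the plus strand, chr4:48057632-48057732 with vehicle and chr4:48056144-48056244 with FGF19, are shown to set the separate sites beside each other. Capitals mark CCCCGCCCC, the SP1 type of sequence, of which the FGF19 window held 2 overlapping copies and the vehicle window 0.
Nr4a3, vehicle: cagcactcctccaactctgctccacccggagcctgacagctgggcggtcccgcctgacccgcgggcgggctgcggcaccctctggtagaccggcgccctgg
Nr4a3, FGF19: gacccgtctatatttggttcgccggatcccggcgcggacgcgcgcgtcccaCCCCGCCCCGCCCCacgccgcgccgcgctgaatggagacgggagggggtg

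Of the estrogen-related receptors, orphan regulators of mitochondrial and energy genes, Esrra (ERRα) was bound with FGF19 only. In the shortened FGF19 list it had no peak. Its promoter peak had 30 tags and a summit 3 bp upstream of the TSS. The background was 10.1 tags, and the fold enrichment of 2.80 was above only 5.36% of FGF19 peaks. A second peak, 889 bp beyond the gene's end, with 27 tags and a fold enrichment of 2.72, was 22 bp upstream of the TSS of Trmt112, a methyltransferase cofactor. Esrrb and Esrrg had no peak, nor had any gene of subfamilies NR5 and NR6. Among these is LRH-1 (Nr5a2), a DNA-bound partner through which SHP represses bile acid synthesis. The nearest peak to Nr5a2 was 218.6 kb away with vehicle and 497.5 kb with FGF19.

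Of 5 steroid receptors, 2 were bound in both groups, beside 4.31% of all protein-coding genes. They were the glucocorticoid receptor (Nr3c1), which drives gluconeogenic genes in the fasted liver, and the mineralocorticoid receptor (Nr3c2). Esr1, Esr2 and Pgr, the receptors of estrogen and progesterone, were not bound in either group. Nr3c2, at chr8:79423341-79768911, had a shared peak, chr8:79425910-79426469 with vehicle and chr8:79425870-79426160 with FGF19. The pileup was 27 tags with vehicle and 26 with FGF19, on backgrounds of 6.70 and 4.64 tags, and the fold enrichment was 3.64 and 4.78. The summits lay 91 bp and 159 bp upstream of an internal TSS.

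Nr3c1, at chr18:39570199-39650955, was the receptor with the most shared binding, with 2 peaks in each list that overlapped pairwise. The peak upstream of the gene had 43 tags (exact Poisson 95% interval 31.1 to 57.9) and a fold enrichment of 6.29 with vehicle, the highest of all member peaks and above 89.1% of vehicle peaks. With FGF19 it had 33 tags (22.7 to 46.3) and a fold enrichment of 4.22. Its summits were 469 bp and 528 bp upstream of the TSS. The peak in the 5′ untranslated exon had 25 tags in both groups and fold enrichments of 3.86 with vehicle and 4.29 with FGF19, with summits 105 bp and 144 bp downstream of another TSS.

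In position, 9 of the 12 vehicle peaks (75%, Wilson 95% interval 46.8 to 91.1) had their centre within 1 kb of a TSS of any gene, and with FGF19 it was 13 of 18 (72.2%, 49.1 to 87.5). Over the whole lists it was 72.7% with vehicle and 81.6% with FGF19, inside both intervals. By annotation, the vehicle summits lay in introns at 5 peaks, in 5′ untranslated exons at 2, upstream at 2, and in a coding exon, a 3′ untranslated region and downstream of the gene at 1 each. The FGF19 summits lay in introns at 5, in 5′ untranslated exons at 5, upstream at 3, in 3′ untranslated regions at 2, downstream at 2 and in a coding exon at 1.

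**Figure D3:**
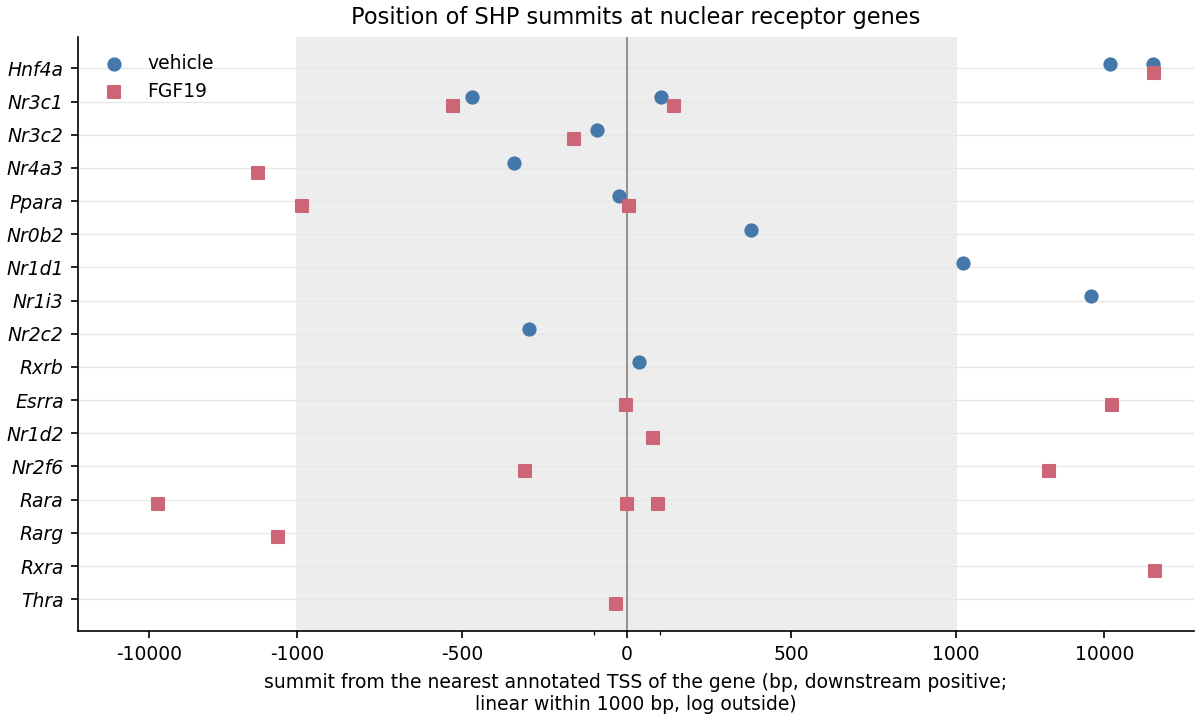
Distance of each SHP summit from the nearest annotated TSS of the nuclear receptor gene in bp, downstream positive, on an axis that is linear within 1000 bp (shaded) and logarithmic outside, with circles for vehicle and squares for FGF19. Summits of Nr3c1, Nr3c2 and the Ppara promoter nearly coincide between the groups, those of Nr4a3 lie at -343 and -1831 bp, and those of Hnf4a and Rxra lie 21346 bp or more downstream, apart from 1 vehicle peak of Hnf4a at 10916 bp.

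Of the member peaks, 5 of 12 with vehicle (41.7%) and 5 of 18 with FGF19 (27.8%) were overlapped by a peak of the other list, beside 45.5% and 21.8% of all peaks. At these shared peaks the summit pileup per 1000000 filtered ChIP tags was higher with FGF19 at 4 and lower at the upstream peak of Nr3c1, beside 499 of all 678 common regions higher (73.6%). The ratio of FGF19 to vehicle was 0.883 at that Nr3c1 peak (exact 95% interval of counting error 0.544 to 1.42) and 1.11 to 1.15 at the other 4. Those 4 were higher only after scaling to the smaller FGF19 library. Unscaled, Hnf4a had 18 tags and the exon peak of Nr3c1 25 in both groups. Nr3c2 and Ppara each had 27 with vehicle and 26 with FGF19. Every one of the 5 intervals included 1, the widest running from 0.565 to 2.35 at Hnf4a. ChIP tags were extended to 240 bp with vehicle and 260 bp with FGF19, and the part of that difference in the scaled pileups was not tested.

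By fold enrichment the shared peaks differed in either direction. The log2 ratio of FGF19 to vehicle was -0.58 at the upstream peak of Nr3c1, -0.16 at Hnf4a, 0.15 at the exon peak of Nr3c1, 0.40 at Nr3c2 and 0.48 at Ppara. The median was 0.15, where all 678 regions common to both lists had a median of -0.02 with quartiles of -0.36 and 0.32. By pileup per 1000000 tags the median was 0.15 on the log2 scale, against 0.20 over the common regions. The background computed from pileup and fold enrichment also differed between the groups. Per 1000000 ChIP tags it was 0.557 with vehicle and 0.420 with FGF19 at Ppara, 0.433 and 0.345 at Nr3c2, and 0.387 and 0.525 at the upstream peak of Nr3c1. Only at the upstream peak of Nr3c1 was the direction the same by every measure, lower with FGF19. Hnf4a was lower with FGF19 in fold enrichment, higher in scaled pileup and equal in unscaled tags. Nr3c2 and Ppara were higher in fold enrichment and scaled pileup but slightly lower in unscaled tags. The exon peak of Nr3c1 was higher in the first 2 measures and equal in unscaled tags.

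**Figure D4:**
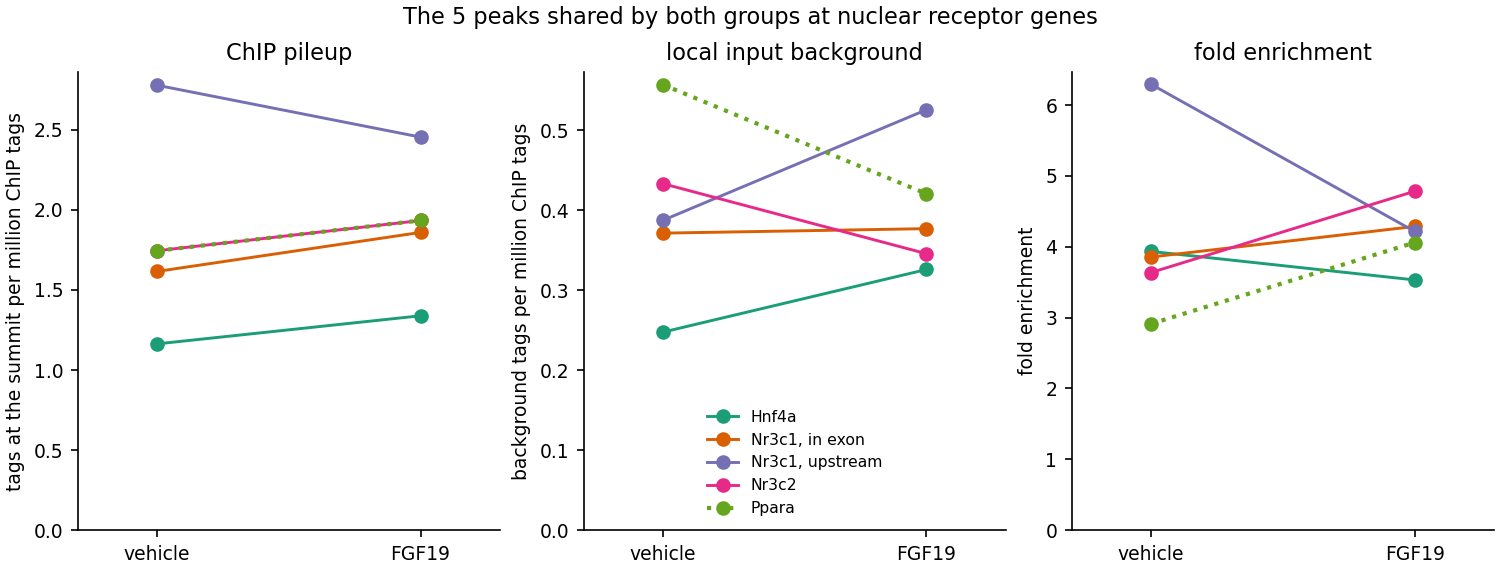
The 5 peaks found in both groups, joined from vehicle to FGF19, with the ChIP pileup at the summit per 1000000 ChIP tags (left), the local input background per 1000000 ChIP tags (middle) and the fold enrichment (right). Pileup lines are close to level, and Nr3c2 and Ppara coincide there (Ppara dotted), while background and fold enrichment cross between genes. Each point is 1 pooled library, with no replicate error.

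For short sequences, both strands were searched for exact matches up to 100 bp from each summit. Mitochondrial peaks were left out here, so shares of all FGF19 peaks are of 3148 peaks. The receptor hexamer AGGTCA was in 1 of 12 vehicle peaks (8.33%), at Nr0b2, and in 2 of 18 FGF19 peaks (11.1%), at Nr1d2 and Rara, beside 9.08% and 7.15% of all peaks. The YY1 type core AANATGGC was in 4 vehicle peaks (33.3%) beside 9.75% of the list, and in 1 FGF19 peak (5.56%) beside 7.56%. The vehicle peaks were those of Nr1i3, Nr2c2, Rxrb and the upstream peak of Nr3c1, and the FGF19 peak was the upstream one of Nr3c1. The Nr3c1 copies were at different positions, 67.5 bp from the vehicle summit and -79.5 bp from the FGF19 summit, downstream positive. ATTGGC was in 1 vehicle peak (8.33%) and 2 FGF19 peaks (11.1%), beside 11.2% and 11.1%. CCCCGCCCC was in 0 and 2 (11.1%), beside 13.1% and 14.8%. None of these sequences contains another, and the intronic Rara peak held both AGGTCA and ATTGGC. With 12 and 18 peaks these shares are coarse, and a match is not shown to be bound.

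Sites of both kinds are printed as 30 bases read with the motif forward and in capitals, because they are the receptor hexamers and YY1 type cores beside SHP summits at these genes, those of Nr3c1 left out. They come from mm9, and lie 5 bp (Nr0b2), 42 bp (Nr1d2), 25 bp (Rara), 9 bp and 51 bp (Nr1i3, beside Tomm40l), 69 bp (Nr2c2) and 30 bp (Rxrb) from their summits. All 4 of the cores read AAGATGGC.
Nr0b2, chr4:133109650-133109679, minus strand: cagccacctcgaAGGTCAcagcatcctggg
Nr1d2, chr14:19071494-19071523, minus strand: gaggagccctccAGGTCAgctgccgtgccc
Rara, chr11:98812950-98812979, minus strand: gacacgtttcccAGGTCAgcagctgaccag
Nr1i3, chr1:173152617-173152646, minus strand: tgcccatttccAAGATGGCgcctacggaca
Nr1i3, chr1:173152557-173152586, minus strand: tgccattactcAAGATGGCtgcccccatca
Nr2c2, chr6:92042048-92042077, minus strand: gccgcggggacAAGATGGCggcgctggcgg
Rxrb, chr17:34168751-34168780, plus strand: ccgtctgtacaAAGATGGCggccgcgccgg

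The summit windows were rich in GC, as were the whole lists, mitochondrial peaks again left out. The median was 65.7% with vehicle (46.8 to 80.1) beside 63.7% over all vehicle peaks, and 69.9% with FGF19 (43.3 to 82.6) beside 68.2%. The windows poorest in GC were the FGF19 peak of Ppara away from the promoter at 43.3%, and the peaks of Hnf4a at 46.8% to 49.8%.

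For 3 receptor genes a neighbour's TSS was the nearest to a counted summit, Tomm40l for Nr1i3, Trmt112 for 1 peak of Esrra and Ocel1 for 1 peak of Nr2f6. Esrra and Nr2f6 each kept another peak of their own. At the 5 kb limit, the counted peak farthest from a gene body was that by Ocel1 at 2370 bp, and the nearest left out was the vehicle peak of Nr1d1, 5023 bp beyond the neighbouring gene Thra. Next came a pair of peaks near Apoa2, 5322 bp (FGF19, fold enrichment 7.37) and 5329 bp (vehicle, 14.7) from Nr1i3.

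Over all 47 genes the median distance to the nearest peak was 229.0 kb with vehicle and 119.1 kb with FGF19, beside 354.2 kb and 135.8 kb over all protein-coding genes.

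**Figure D5:**
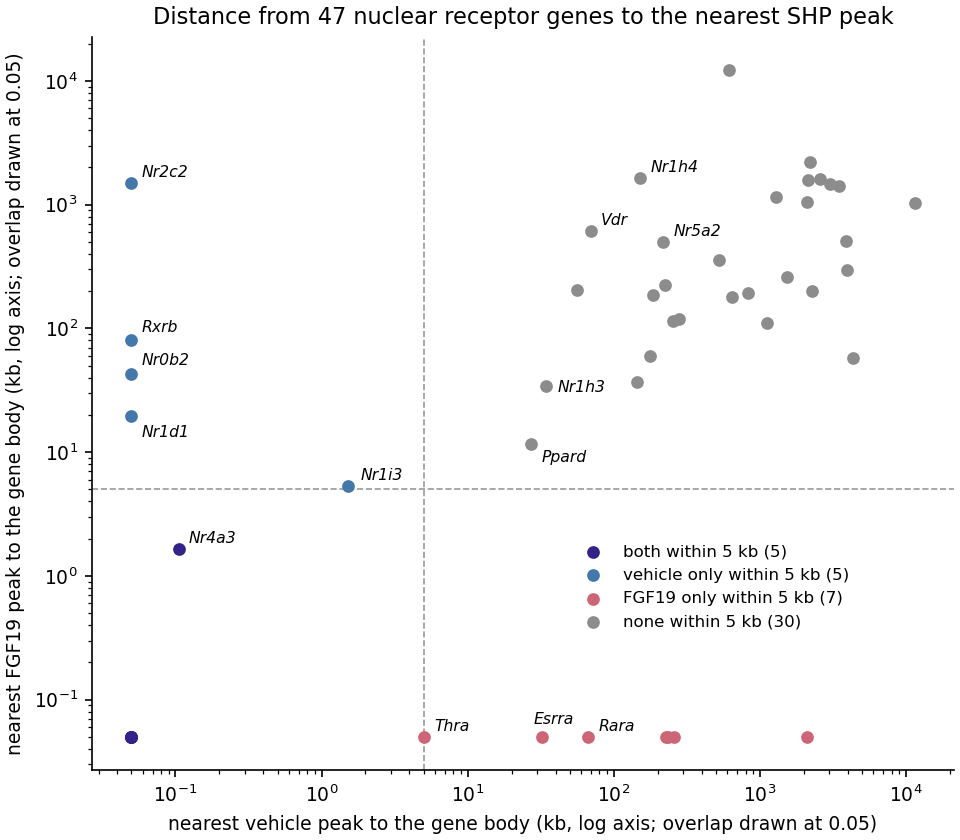
Distance in kb from each of the 47 nuclear receptor gene bodies to the nearest vehicle peak (horizontal, log axis) and the nearest FGF19 peak (vertical, log axis), with overlap drawn at 0.05 and dashed lines at 5 kb. Colours show the 5 genes bound in both groups, 5 with vehicle only, 7 with FGF19 only and 30 in neither. Thra and Nr1i3 sit almost on the 5 kb line of the other group, at 5.02 and 5.32 kb, and the unbound genes start at 11.7 kb.

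Coregulators that nuclear receptors recruit were counted in the same way. Of 27 genes, 2 had a peak with vehicle (7.41%) and 13 with FGF19 (48.1%), beside 7.93% and 16.3% of all protein-coding genes, and 12 (44.4%) were bound with FGF19 only, beside 12.0%. The receptors themselves stood at 10 and 12 genes. Ncor1, for the corepressor NCoR, was bound with vehicle only, with a fold enrichment of 3.62, and Carm1, a histone arginine methyltransferase, in both groups. These genes had 15 FGF19 peaks and 2 vehicle peaks. The 6 genes of largest fold enrichment, all from the longer FGF19 set, had 6.57 at Arid1a, a chromatin remodelling subunit, 5.42 at Ncoa1, for the coactivator SRC-1, 5.02 at Sin3a, a histone deacetylase scaffold, 4.96 at Ehmt2, for the histone methyltransferase G9a, 4.49 at Smarca2, for the remodelling ATPase BRM, and 4.37 at Med1, a Mediator subunit that contacts liganded receptors. The peak named for Ehmt2 was nearest to the TSS of Zbtb12, and those counted for Gps2 and Hdac3 to the TSSs of Eif5a and Diap1. A second peak of Ehmt2 had its summit 35 bp upstream of the TSS of Ehmt2 and 18 bp from that of C2.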

How the data were processed

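The processed peak lists of both SHP ChIP libraries were used, and the inputs entered only through them. The authors aligned reads to mm9 with Bowtie 1.0.0, allowing 2 mismatches, and called peaks against input with MACS2 2.0.10.20130501 (q-value cutoff 0.05, 1 tag kept per position). The deposited signal is the pileup at the summit, the deposited fold enrichment a ratio to the local input background, and the deposited -log10 values are the peak caller's p-value and q-value. Filtered ChIP libraries held 15473647 tags (vehicle) and 13444078 (FGF19). Poisson intervals on pileups cover counting error only.

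The background was computed as (pileup + 1) / fold enrichment - 1. Peaks were assigned to GENCODE M1 gene bodies within 5 kb, and sequences were read from the reference of the same build, inside which every peak lay. Members and lists were chosen with earlier results of these data known. All members with a peak are named, with the neighbours nearest to their summits and the 6 coregulators of largest fold enrichment. No test was made, with 1 library per group. Tables were handled with pandas 2.3.3 and numpy 2.4.6 under Python 3.11.15, intervals computed with scipy 1.17.1, sequences fetched with samtools 1.23.1 and pyfaidx 0.9.0.4, and plots drawn with matplotlib 3.10.9.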

Additional observations from a re-analysis of the deposited data

How the results depend on the processing

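Of 57 recomputed values, 11 could not move, because every peak counted lay past the stricter q-value cutoff of 0.01 or because shortening the FGF19 list leaves the vehicle counts as they are. Of the other 46, 41 stayed within 1.5 times of the reported one (the log2 ratio at shared peaks within the SD between those peaks), and 5 did not. Shortening the FGF19 list to the 1508 peaks of smallest q-value left 5 receptor genes with an FGF19 peak and 7 FGF19 peaks at them. Rara was then the 1 gene with FGF19 only, and 11 genes bound in either group remained of the 17. Those lost were Esrra, Nr1d2, Nr2f6, Rarg, Rxra and Thra. Counting summits within 1 kb of a TSS gave 3 genes bound in both groups and 11 FGF19 peaks. Widening the distance to 10 kb added no receptor but moved Nr1i3 and Thra to those bound in both groups. No replicate could be left out with 1 library per group. No paired analysis was possible because each group is 1 library. Counts of 14 to 49 tags limit the precision of each peak.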
